A study of Homo sapiens with 12 samples.

Results

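GPR34, GPR82 and 7 purinergic receptor genes (P2RY2, P2RY6, P2RY13, P2RY14, P2RX1, P2RX4 and P2RX7) were followed in U937 cells. Every probe set that the array's annotation assigns to one of these symbols was taken, which gave 12 probe sets for the 9 genes, of 54675 probe sets and 19775 named genes in all. The genes had been chosen by the difference between PMA and vehicle without doxycycline, so that difference is described below without a test. U937 is an established human line from a histiocytic lymphoma, with traits of immature monocytes, and PMA is a phorbol ester that drives it toward a macrophage-like state.

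The study holds 12 arrays of the Affymetrix HG-U133 Plus 2.0 type, 3 in each of 4 groups. All cells were of a stably transduced line in which a TRIPZ vector with a Tet-On switch yields, once doxycycline is added, a hairpin RNA directed at ZXDC1 and ZXDC2, products of the zinc finger gene ZXDC, and all were kept in puromycin. The vehicle group received 0.1% DMSO for 3 days, and the PMA group 100 nM PMA for 3 days. The vehicle with doxycycline and PMA with doxycycline groups received the same agents after 2 days of doxycycline, which was added every day for 4 days (0.5 µg/mL); the durations are as the labels state them. No group carried another hairpin, so doxycycline itself and the hairpin it switches on cannot be told apart. The labels call the arrays of a group biological replicates 1 to 3 without saying how the cultures were kept apart, so the p-values measure the spread between these samples, which may be technical. Each deposited value is a log2 signal, and differences are given in log2 units.

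ZXDC itself was lower with doxycycline on all 6 of its probe sets, with differences of -0.63 to -0.25 averaged over both agents. On 225964_at 70.9% of the signal was left (mean difference -0.50, exact permutation p = 0.005, two-sided, n = 3 per group, the smallest that 400 relabelings can give). By the limma fit used for the members no ZXDC probe set was called (adjusted p 0.541 to 0.855, and 0.639 for 225964_at). The identity list was read unevenly. By mean over all arrays LYZ, lysozyme, lay at the 99th percentile of the probe sets, ELANE at the 95.7th and PTPRC, which all leukocytes carry, at the 95.1st, whereas CD14 lay at the 47.6th, MPO at the 33.1st and FCGR1A at the 20.4th. Of the T and NK cell markers NKG7 was bright too (96.1st percentile), and the other 6 lay between the 33.4th and the 51.7th. The markers of the PMA response moved in part. Of the 10 measured genes of the identity list, 4 rose with PMA in the presence of doxycycline, 1 fell and 5 were not called. CD14, placed above by its percentile, rose by 2.13 (limma adjusted p = 0.0091). ITGAX, the integrin chain CD11c, rose by 5.03 on its brighter probe set, ITGAM, the chain CD11b, by 4.77 on its brighter one, and ELANE, neutrophil elastase, fell by 4.04 (PMA with doxycycline against vehicle with doxycycline, limma, Benjamini-Hochberg adjusted p at most 1.11e-08). The other probe set of ITGAX stood at 0.26 and that of ITGAM at 0.10 (limma adjusted p 0.332 and 0.688). The 4 arrays numbered 1 stood apart by a probe measure of RNA integrity. Their ACTB 3' probe sets exceeded the 5' probe sets by 1.99 to 2.72, against 0.71 to 1.64 on the other 8 arrays, while the same measure for GAPDH overlapped (0.17 to 0.25 against 0.12 to 0.25). Of the reference genes ACTB stood at -0.52 (limma adjusted p = 0.0769) and GAPDH at -0.07 (limma adjusted p = 0.702) with PMA in the presence of doxycycline. Values that follow the number 1 are given beside the results they touch.

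Purinergic receptors sense nucleotides that leak or are released from cells. P2X receptors are ion channels opened by ATP, and P2Y receptors are G protein-coupled receptors for ATP, ADP, UTP, UDP or UDP-sugars, while in monocytes and macrophages they are known for roles in chemotaxis, phagocytosis and cytokine release. GPR34, a receptor for lysophosphatidylserine best known from microglia, and GPR82, an orphan receptor, belong to the same branch of rhodopsin-like receptors as the P2Y receptors, and their genes are neighbours on the X chromosome.

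Of the members that PMA raised, GPR82, P2RX4 and P2RX7 had an upstream window in the RefSeq promoter table (GRCh38.p14), and these windows are shown because the data bear on how these genes' RNA changed. Each is the 250 bases before the annotated start, read 5' to 3' on the gene's strand: chrX:41723931-41724180 for GPR82, chr12:121209879-121210128 for P2RX4 and chr12:121132626-121132875 for P2RX7, all on the plus strand. Capitals mark matches to the searched letters.
GPR82: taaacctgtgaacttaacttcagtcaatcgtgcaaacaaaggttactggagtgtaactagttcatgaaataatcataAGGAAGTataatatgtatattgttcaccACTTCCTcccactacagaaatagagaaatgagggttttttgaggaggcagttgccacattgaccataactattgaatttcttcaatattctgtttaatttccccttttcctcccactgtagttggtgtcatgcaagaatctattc
P2RX4: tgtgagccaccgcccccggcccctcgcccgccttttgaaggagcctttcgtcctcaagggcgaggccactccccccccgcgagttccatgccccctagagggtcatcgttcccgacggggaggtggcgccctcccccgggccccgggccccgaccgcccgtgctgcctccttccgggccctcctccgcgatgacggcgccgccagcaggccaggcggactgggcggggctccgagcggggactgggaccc
P2RX7: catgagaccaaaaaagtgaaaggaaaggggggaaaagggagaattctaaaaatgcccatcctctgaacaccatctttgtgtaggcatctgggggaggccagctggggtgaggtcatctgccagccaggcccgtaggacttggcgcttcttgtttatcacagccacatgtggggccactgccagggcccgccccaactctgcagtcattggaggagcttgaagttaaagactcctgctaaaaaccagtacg
Motif letters were searched on either strand: TGANTCA (AP-1), TGACGTCA (the cyclic AMP response element), AGGAAGT (an ETS site of the PU.1 type), GCGGGGGCG (EGR), TTNNGCAAT (C/EBP), TGCTGAC (MAF) and TATAAA (the TATA box). The AP-1 and MAF letters can share bases. The GPR82 window held AGGAAGT at positions -173 to -167 before the start and its reverse complement, ACTTCCT, at -145 to -139. At least 1 copy was found in 7.01% of 34786 distinct windows of this length, and 2 or more in 126 windows, 0.362%. The share with 2 or more was counted for AGGAAGT alone of the 7 motifs, so it makes no allowance for the search. The other letters occurred in 6.59% (AP-1), 1.64% (cyclic AMP response element), 4.71% (EGR), 2.03% (C/EBP), 3.37% (MAF) and 10.8% (TATA box) of the windows. None of the 7 was found in the P2RX4, P2RX7 or P2RY13 window, and TGCTGAC was found at -218 to -212 in the second of the P2RY14 windows. The windows also differed in base composition. GC made up 36.0% of the GPR82 window, 76.0% of the P2RX4 window and 53.2% of the P2RX7 window, beside a median of 58.0% over all windows. These matches are descriptions of letters, and no factor's binding was measured.

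PMA raised GPR34 and GPR82 by more than 3 log2 units on every probe set and the channels P2RX4 and P2RX7 by less, while P2RY6 fell and P2RY2, P2RY13, P2RY14 and P2RX1 did not pass the test. The comparison of PMA with doxycycline against vehicle with doxycycline used 6 arrays that were not in the difference that singled out the genes. It is not wholly independent of that choice, since the spread came from all 12 arrays and earlier results of these data were known. Its arrays were also taken as paired, by number within agents, with the arrays of that difference, so deviations they share enter both. In this comparison 8 of the 12 member probe sets were called at a limma Benjamini-Hochberg adjusted p under 0.05, 7 higher and 1 lower with PMA. Over all 54613 probe sets tested, 24.5% were called (10.7% higher and 13.8% lower). The 8 called probe sets belong to 5 genes, and they were also the ones whose PMA and vehicle arrays did not overlap, beside 36.3% of all probe sets. The groups are bulk cultures, so fewer cells of a type and less RNA per cell cannot be told apart in any of these differences.

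**Figure D1:**
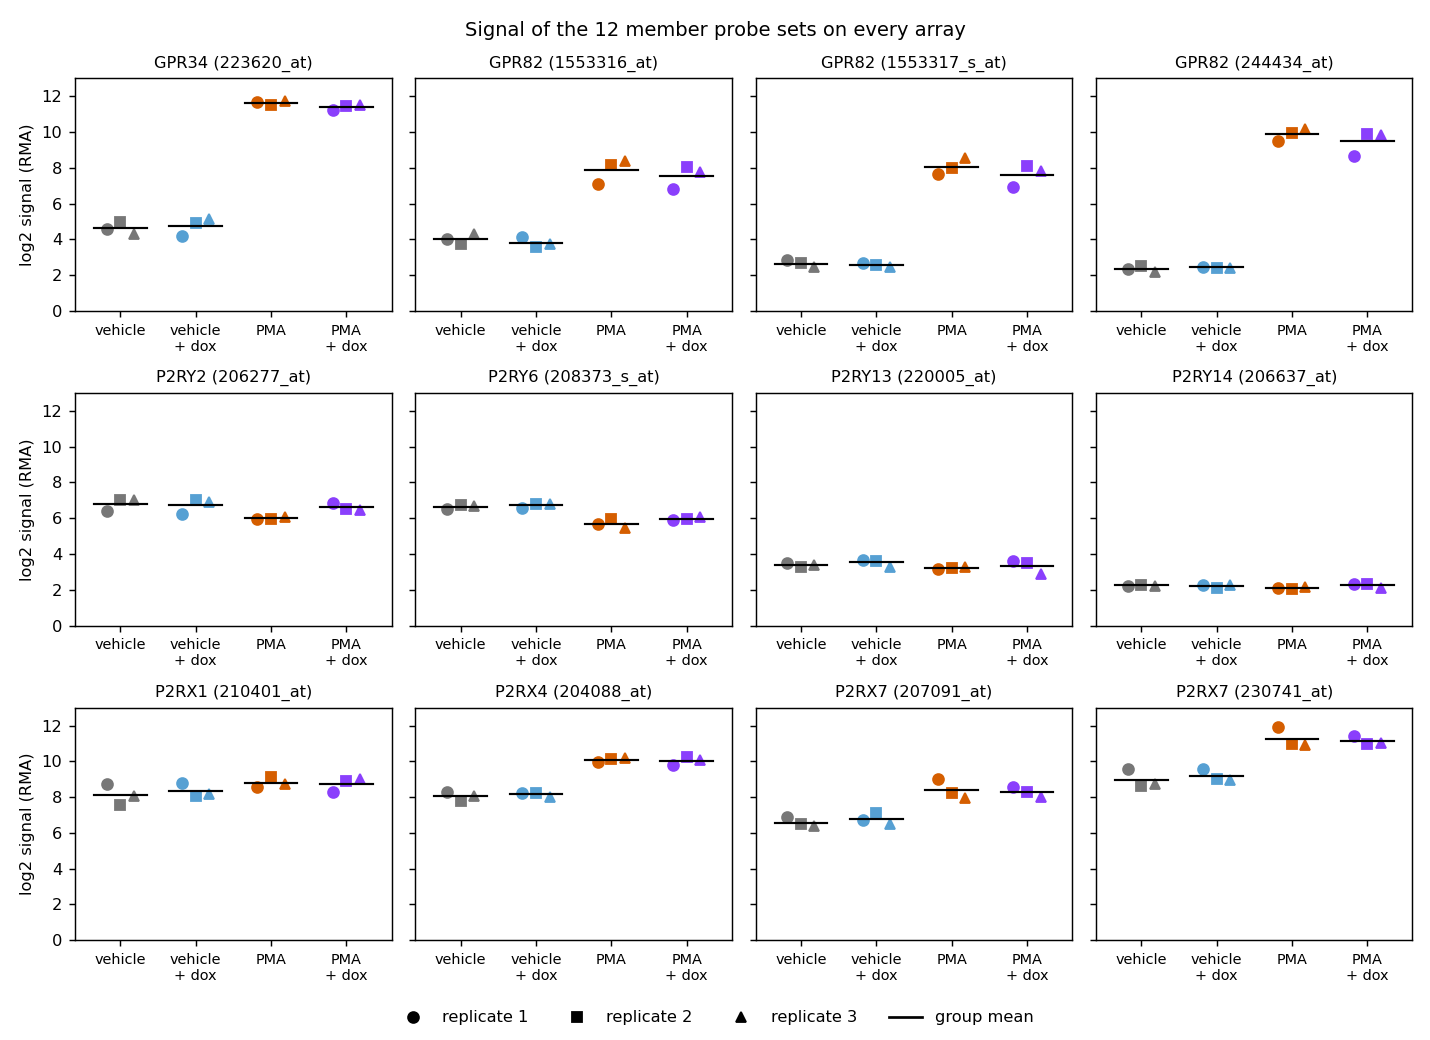
Log2 signal of each member probe set on each of the 12 arrays, one panel per probe set, with groups along the horizontal axis, points for arrays marked by replicate number and short lines for group means. The GPR34 panel shows all 6 PMA arrays above 11 and all 6 vehicle arrays at 5.12 or below, whereas the P2RY14 panel stays between 2.06 and 2.34 throughout.

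GPR34 (probe set 223620_at) was measured at 4.60, 4.98 and 4.33 on the vehicle arrays numbered 1, 2 and 3, and at 4.18, 4.89 and 5.12 with doxycycline. With PMA it read 11.66, 11.54 and 11.74, and with PMA and doxycycline 11.21, 11.48 and 11.50. All PMA arrays were high and all vehicle arrays low, with a gap of more than 6 log2 units between them, and the vehicle groups overlapped each other. With doxycycline present PMA raised GPR34 by 6.67 (SE 0.21, 95% interval 6.21 to 7.13, limma adjusted p = 1.28e-10, n = 3 per group), a 101.6-fold difference and the 16th largest rise among all probe sets. Without doxycycline the difference was 7.01. The group means moved from the 41.8th percentile of all probe sets on the array in vehicle with doxycycline to the 97.8th in PMA with doxycycline. No detection call was used here, so the vehicle signal of GPR34 may be background and the fold may understate the rise.

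GPR82 was read by 3 probe sets, which all rose with PMA. On 244434_at the vehicle arrays gave 2.32, 2.50 and 2.17, and those with doxycycline 2.48, 2.42 and 2.39. The same probe set gave 9.48, 9.93 and 10.18 with PMA, and 8.69, 9.90 and 9.86 with PMA and doxycycline. The signal thus went from the dimmest few percent of probe sets (2.24th percentile of the mean, vehicle with doxycycline) to the 91.9th percentile (PMA with doxycycline). The difference with doxycycline present was 7.06 (SE 0.26, interval 6.49 to 7.62, limma adjusted p = 5.53e-10). It was 7.53 without doxycycline. Since the vehicle level lies near the bottom of the array and no detection call was used here, no fold is given, and the difference may understate the rise.

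The second GPR82 probe set, 1553317_s_at, read 2.83, 2.67 and 2.43 in vehicle, 2.70, 2.58 and 2.45 in vehicle with doxycycline, 7.66, 8.0 and 8.54 in PMA, and 6.92, 8.12 and 7.80 in PMA with doxycycline. Its difference with doxycycline present was 5.04 (SE 0.27, interval 4.47 to 5.61, limma adjusted p = 1.17e-08). The remaining GPR82 probe set, 1553316_at, read 4.02, 3.74 and 4.31 in vehicle, 4.12, 3.55 and 3.73 in vehicle with doxycycline, 7.10, 8.17 and 8.39 in PMA, and 6.80, 8.06 and 7.76 in PMA with doxycycline. It rose by 3.74 (SE 0.34, interval 3.01 to 4.47, limma adjusted p = 1.87e-06). On 1553317_s_at too the vehicle level was near the bottom of the array (4.62nd percentile with doxycycline), so the sizes of the 3 rises are not ranked. All 3 had the same direction. In both PMA groups the lowest GPR82 array on every probe set was the one numbered 1, and within that number the rise with doxycycline was 2.68, 4.23 and 6.21, against 4.51, 5.53 and 7.48 within number 2 (1553316_at, 1553317_s_at and 244434_at). The part of the ACTB 3' to 5' difference in this was not tested.

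P2RX4, an ATP-gated channel found largely in lysosomes and at the surface of macrophages, rose with PMA on its single probe set, 204088_at. Vehicle arrays read 8.31, 7.76 and 8.08, and vehicle arrays with doxycycline 8.23, 8.24 and 8.0. PMA arrays read 9.96, 10.11 and 10.21, and PMA arrays with doxycycline 9.82, 10.22 and 10.07. Every PMA array lay above every vehicle array, and the spread within a group was small beside the gap. The rise with doxycycline present was 1.88 (SE 0.15, interval 1.55 to 2.20, limma adjusted p = 6.39e-07), 3.68-fold, and the difference without doxycycline was 2.05.

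P2RX7, the channel that opens at high ATP and is known for its link to inflammasome activation, rose on both of its probe sets. On 230741_at vehicle arrays read 9.58, 8.61 and 8.71, vehicle arrays with doxycycline 9.58, 8.99 and 8.98, PMA arrays 11.91, 10.97 and 10.93, and PMA arrays with doxycycline 11.41, 10.98 and 11.04. The array numbered 1 was the highest of each group, so the groups' internal spread ran with the number, yet the rise within numbers 1, 2 and 3 was 1.83, 1.98 and 2.06 with doxycycline. Fitted over the groups it was 1.96 (SE 0.29, interval 1.34 to 2.58, limma adjusted p = 0.000151), 3.88-fold.

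The other P2RX7 probe set, 207091_at, read 6.87, 6.47 and 6.38 in vehicle, 6.71, 7.12 and 6.47 in vehicle with doxycycline, 9.0, 8.25 and 7.94 in PMA, and 8.55, 8.27 and 7.98 in PMA with doxycycline. It rose by 1.50 (SE 0.25, interval 0.97 to 2.03, limma adjusted p = 0.000399) with doxycycline present. The intervals of both P2RX7 probe sets overlap. Without doxycycline the differences were 2.30 (230741_at) and 1.83 (207091_at).

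P2RX1, the fast-desensitising ATP channel best known from platelets, did not pass the test. Its probe set 210401_at read 8.73, 7.58 and 8.06 in vehicle, 8.76, 8.08 and 8.18 in vehicle with doxycycline, 8.57, 9.12 and 8.72 in PMA, and 8.26, 8.90 and 8.99 in PMA with doxycycline. The difference with doxycycline present was 0.38 (interval -0.22 to 0.98, limma adjusted p = 0.403), and the groups overlapped: with doxycycline the vehicle array numbered 1 was the highest of its group and the PMA array numbered 1 the lowest. Within numbers 1, 2 and 3 the difference was -0.50, 0.82 and 0.82. On the arrays numbered 2 and 3 alone P2RX1 was called, at 0.82 (adjusted p of 0.00413, limma).

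P2RY6, the receptor for UDP, was the member that fell. Its probe set 208373_s_at read 6.49, 6.72 and 6.67 in vehicle and 6.55, 6.78 and 6.82 in vehicle with doxycycline, against 5.69, 5.95 and 5.47 in PMA and 5.87, 5.93 and 6.07 in PMA with doxycycline. All 6 PMA arrays lay below all 6 vehicle arrays. The fall with doxycycline present was -0.76 (SE 0.13, interval -1.05 to -0.47, limma adjusted p = 0.000708), a level 1.69-fold lower, and the difference without doxycycline was -0.93.

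P2RY2, the receptor for ATP and UTP encoded next to P2RY6, did not pass the test with PMA. Its probe set 206277_at read 6.38, 7.03 and 7.01 in vehicle, 6.24, 7.03 and 6.90 in vehicle with doxycycline, 5.97, 5.96 and 6.07 in PMA, and 6.86, 6.51 and 6.45 in PMA with doxycycline. The PMA arrays without doxycycline were the lowest and most uniform, and those with doxycycline fell inside the range of the vehicle arrays. The difference with doxycycline present was -0.12 (interval -0.57 to 0.33, limma adjusted p = 0.77), and that without was -0.81. By number the difference with doxycycline was 0.62, -0.52 and -0.46. With the arrays numbered 2 and 3 only, P2RY2 was called lower, at -0.49 (limma adjusted p = 0.0103), and without replicate 2 of the vehicle with doxycycline group the fitted difference was 0.03. On those arrays, numbered 2 and 3, 10 of the 12 member probe sets were called, beside 26.6% of all probe sets.

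P2RY13, an ADP receptor, and P2RY14, the receptor for UDP-glucose and related sugars, were dim in every group. P2RY13 (220005_at) ranged from 2.87 to 3.68 over the 12 arrays, its group means between the 15.7th and 21.1st percentile, and its difference with doxycycline present was -0.22 (interval -0.59 to 0.15, limma adjusted p = 0.443). Without replicate 3 of the PMA with doxycycline group that value was 0.01. P2RY14 (206637_at) ranged from 2.06 to 2.34, its group means all below the 1st percentile, and its difference was 0.06 (interval -0.16 to 0.29, limma adjusted p = 0.757).

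**Figure D2:**
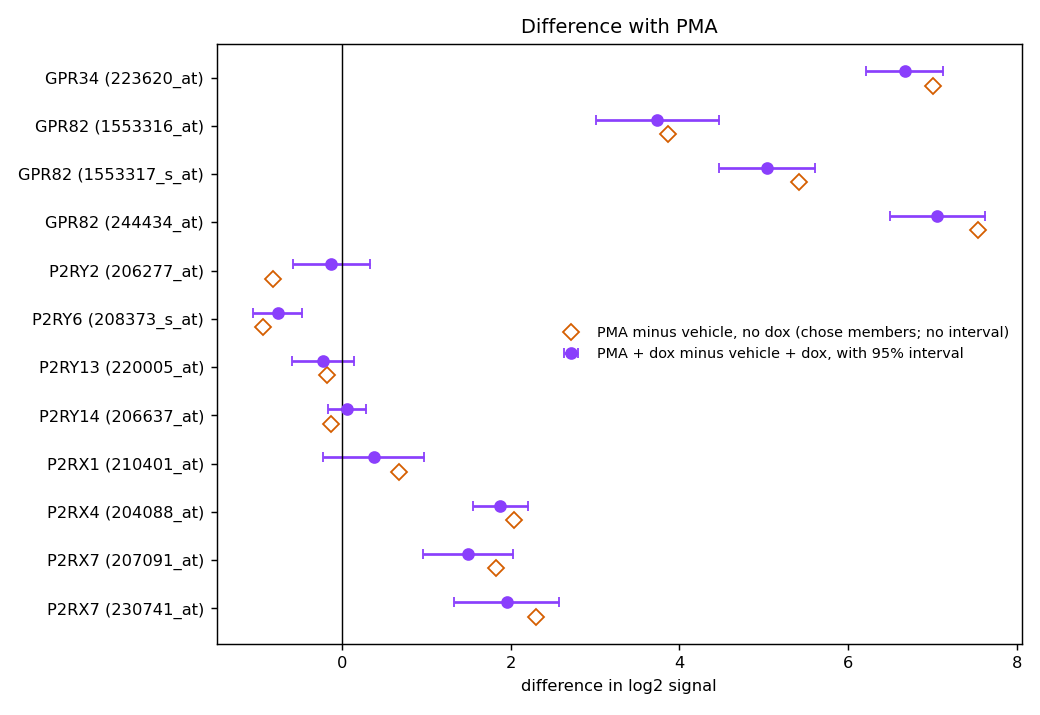
Difference in log2 signal between PMA and vehicle for each member probe set. Filled circles with bars are the fitted difference with doxycycline and its 95% interval, and open diamonds the difference without doxycycline, which singled out the genes and has no interval; GPR82 and GPR34 lie far to the right (3.74 to 7.06 with doxycycline), P2RX4 and P2RX7 between 1.50 and 1.96, and only P2RY6 has an interval wholly below 0.

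Without doxycycline 10 of the 12 member probe sets had groups that did not overlap, beside 36.1% of all probe sets, and 23.6% of all probe sets were called. The comparison helped to choose the genes and is given for the record. Its member differences ran from -0.93 (P2RY6) to 7.53 (GPR82, 244434_at).

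With doxycycline no member was called, and neither was ZXDC by the same test. The comparison shares its PMA or vehicle arrays with the difference that singled out the genes. In PMA-treated cells the member differences ran from -0.45 to 0.61, 0 of 12 probe sets were called by limma, and 1 had an unadjusted p under 0.05, beside 0% called and 5.93% under that unadjusted threshold over all probe sets. GPR34 was -0.25 (interval -0.70 to 0.21, limma adjusted p = 0.938), and its doxycycline arrays all lay below the PMA arrays without it. GPR82 was -0.34, -0.45 and -0.38 on 1553316_at, 1553317_s_at and 244434_at (limma adjusted p 0.949, 0.891 and 0.921). Within numbers 1, 2 and 3 the GPR82 differences were -0.29, -0.10 and -0.64 on 1553316_at, -0.74, 0.12 and -0.74 on 1553317_s_at, and -0.79, -0.03 and -0.32 on 244434_at, so numbers 1 and 3 were lower on every probe set. Without replicate 1 of the PMA with doxycycline group alone, which leaves its partner of the same number in, 1553316_at stood at 0.03 and 244434_at at 0.02.

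The member under the unadjusted threshold was P2RY2, at 0.61 (SE 0.21, interval 0.15 to 1.06, limma adjusted p = 0.745), or 1.52-fold. All 3 PMA arrays with doxycycline lay above all 3 without, by 0.89, 0.55 and 0.38 within numbers 1, 2 and 3. P2RY2 and GPR34 were the members whose groups did not overlap here, 2 of 12, beside 10.2% of all probe sets. When arrays of the same number were paired within agents (6 pairs), 0.145% of all probe sets were called, 79 in place of 0, and no member was. In that paired fit 4 of 12 member probe sets had an unadjusted p under 0.05, beside 11.4% of all probe sets: P2RY2 (limma adjusted p = 0.0736) and the 3 of GPR82, which read 1 gene (limma adjusted p 0.382, 0.279 and 0.314). P2RY6 stood at 0.26 (interval -0.03 to 0.55, limma adjusted p = 0.865).

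In vehicle the differences with doxycycline ran from -0.22 to 0.22. By limma 0 of 12 members were called and 0 had an unadjusted p under 0.05, beside 0% called and 2.84% under that threshold among all probe sets. No member's groups failed to overlap (0 of 12, beside 9.09% of all probe sets), and pairing called 0 as well. Averaged over both agents, in the fit without pairing, the member differences lay between -0.28 and 0.26, with a smallest limma adjusted p of 0.879. In that fit 0 were called or had an unadjusted p under 0.05, beside 0% and 5.9% of all probe sets. With the 6 pairs P2RY2 and GPR82 on 1553316_at and 1553317_s_at had an unadjusted p under 0.05 (limma 0.00806, 0.0163 and 0.034). None was called there (limma adjusted p 0.264, 0.323 and 0.405), beside 0% of all probe sets. The share of all probe sets under the unadjusted threshold was not counted for that paired average. The widest interval in PMA, that of GPR82 on 1553316_at, reached from -1.07 to 0.38, and that of P2RX4 from -0.38 to 0.27. With 3 arrays per group, true changes anywhere inside these bounds remain possible.

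**Figure D3:**
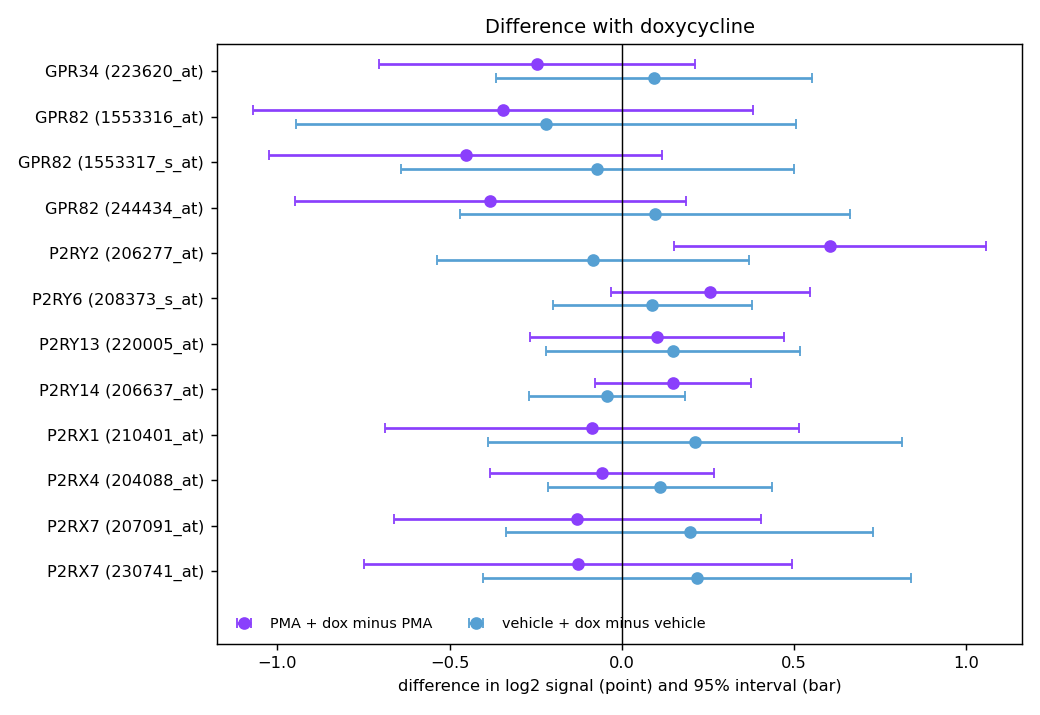
Difference in log2 signal between cultures with and without doxycycline for each member probe set, in PMA and in vehicle, with 95% intervals. In this fit, which does not pair the arrays, all intervals include 0 except that of P2RY2 in PMA, which runs from 0.15 to 1.06. With the 6 pairs the GPR82 probe sets in PMA also had an unadjusted p under 0.05 (limma), and no member was called.

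Whether the effect of doxycycline differed between agents was tested as an interaction. The member values ran from -0.48 to 0.69, and by limma 0 of 12 were called and 1 had an unadjusted p under 0.05, beside 0% and 2.83% of all probe sets, or 0.00183% called with the 6 pairs. That member was P2RY2, at 0.69 (SE 0.30, interval 0.05 to 1.33, limma adjusted p = 1, and adjusted p = 0.695 with the 6 pairs). A difference between agents in the effect of doxycycline was thus not called for any member.

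The genes around these receptors in the nucleotide pathway changed in part in PMA with doxycycline against vehicle with doxycycline. Each gene is given by its probe set of highest mean over all 12 arrays. The PMA arrays count in that mean, so the choice can favour a probe set that PMA raised. By that choice 30.8% of all 19775 genes were called, 12.3% higher and 18.6% lower, with a median difference of -0.01. Of the genes with a P2RY symbol 8 were measured, 0 rose and 2 fell (median -0.17): P2RY6, and P2RY8, a receptor best known from B cells, by -1.79 (SE 0.13, limma adjusted p = 2.22e-07). This list goes by symbol and is not one of nucleotide receptors only. P2RY10, for instance, is also counted below among lysophosphatidylserine receptors. Of the P2X family all 7 were measured, 2 rose and 1 fell (median 0.06). The risers were P2RX4 and P2RX7, and P2RX5 fell by 0.60 (limma adjusted p = 0.00223). No called gene with a P2RY symbol was higher and the called P2X genes went both ways.

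Of the adenosine receptors, which respond to the breakdown product of ATP, 3 were measured and 2 rose (median 0.55). ADORA2B, a low-affinity receptor, rose by 1.18 (limma adjusted p = 0.00094). ADORA3 rose by 0.55 on its probe set of highest mean and stood at 0.03 on the other. In vehicle with doxycycline the former was the dimmer (mean 4.54 against 4.88), so its choice rests on the PMA arrays. The list of ectonucleotidases and adenosine enzymes had 13 measured genes, 1 up and 2 down (median -0.02). ADK, adenosine kinase, rose by 0.56, while ACP3, a phosphatase that makes adenosine from AMP, fell by 1.09 and ADA, adenosine deaminase, by 0.83. The other probe sets of ACP3 stood at -0.17 and -0.76. Among 5 intracellular NTPDases, 1 rose (ENTPD4, by 0.84) and 2 fell (ENTPD7 by 0.69 and ENTPD6 by 0.61), with a median of -0.04. The other ENTPD6 probe sets stood at 0.43 and -0.03 and were not called.

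Channels and carriers through which nucleotides leave cells held 12 measured genes, of which 4 rose and 3 fell (median 0.27). GJA1, connexin 43, rose by 5.66 (SE 0.16, limma adjusted p = 5.31e-11) and LRRC8A, the obligate subunit of the volume-regulated anion channel, by 0.92, whereas GJB2, connexin 26, fell by 1.56 and LRRC8D, another subunit of that channel, by 0.91. Of 7 nucleoside transporters 2 rose and 1 fell (median 0.05). SLC29A3, a lysosomal equilibrative transporter, rose by 2.62 (limma adjusted p = 1.37e-09) and SLC28A3, a concentrative one, by 1.99. SLC29A1, the main equilibrative transporter of the plasma membrane, fell by 1.00.

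Of the partners of P2X7 and the NLRP3 inflammasome path, 12 were measured, 5 rose and 0 fell (median 0.42). CARD16, a decoy for caspase-1, rose by 2.28 (limma adjusted p = 3.02e-07) on its brighter probe set and stood at 0.22 on the other, and IL1B, the cytokine interleukin 1 beta, rose by 1.98 (limma adjusted p = 0.00205). NLRP3 itself stood at -0.06 and CASP1, caspase-1, at 0.52 on its brightest probe set (limma adjusted p 0.832 and 0.0667). The CASP1 probe sets disagreed: 1 of the 5 rose by 1.66 (limma adjusted p = 2.51e-07), and the other 4 stood at 0.48 to 0.64, none called. With the arrays numbered 2 and 3 only, 8 of the 12 were called. Of 5 measured genes that supply UDP-sugars, the ligands of P2RY14, 2 rose: UGDH by 0.61 and UXS1 by 0.42 (median 0.23).

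Around GPR34, 8 genes for lysophosphatidylserine receptors, synthesis and breakdown were measured, and 2 rose (median 0.10). These were GPR34 and ABHD16A, an enzyme that makes lysophosphatidylserine, by 0.40 (limma adjusted p = 0.0419), with -0.25 on its other probe set. Among relatives in the P2Y-like receptor branch 20 were measured, and by the probe set of highest mean 10 rose and 0 fell (median 0.41). GPR82 and GPR34 were among them. Others, named after their values were seen, were HCAR3, a receptor for hydroxylated fatty acids, at 3.67, SUCNR1, the succinate receptor, at 2.03, and PTAFR, the receptor for platelet-activating factor, at 1.97. F2R, also on this list, stood at 0.08 on its brighter probe set. Its other probe set was called lower, at -1.05 (limma adjusted p = 0.00118).

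**Figure D4:**
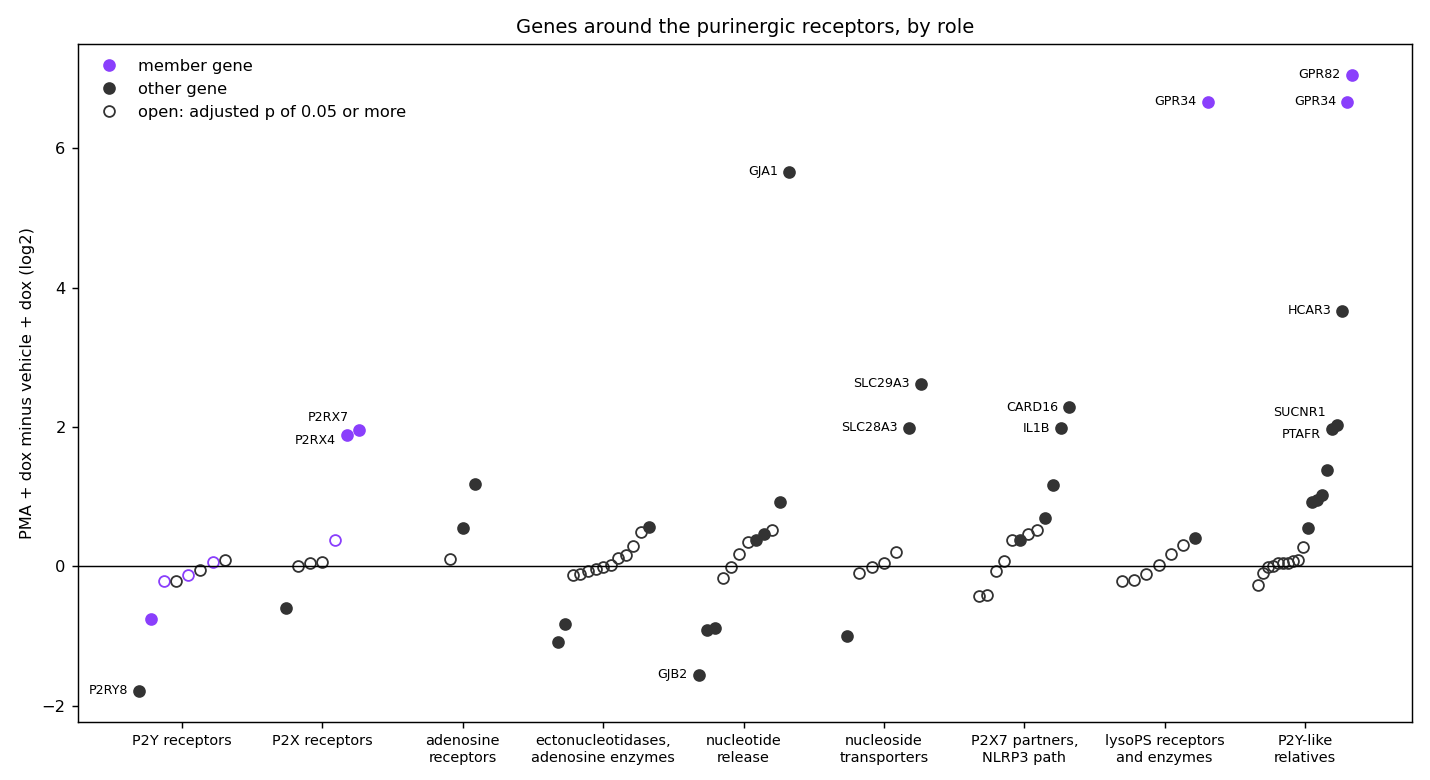
Each point is a gene of one of 9 lists around the purinergic receptors, at its difference in log2 signal between PMA with doxycycline and vehicle with doxycycline (vertical axis), read by its probe set of highest mean; purple marks member genes and open circles an adjusted p of 0.05 or more. GPR82, GPR34 and GJA1 stand above 5, while the P2Y list, drawn up by gene symbol, has no filled point above 0 and reaches down to -1.79 at P2RY8.

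Downstream of the receptors, 17 G protein and effector genes were measured, 4 up and 3 down (median 0.07). ITPR1, an IP3-gated calcium channel, rose by 2.74 (limma adjusted p = 2.76e-09; called on 4 of 5 probe sets) and PIK3R5, a regulatory subunit of PI3-kinase gamma, by 1.59. PLCB1, a phospholipase C, fell by 2.87 (limma adjusted p = 8.98e-07) on its brightest probe set, while the others stood at -0.21 and 0.24, and PIK3CG, the catalytic subunit of PI3-kinase gamma, fell by 1.96. Of 10 genes of receptor desensitisation 3 rose and 3 fell (median 0.04). RGS1, which shortens G protein signals, rose by 6.47 (limma adjusted p = 1.25e-09) and RGS16 by 2.32, while RGS18 fell by 2.04 and GRK3 by 0.48. Of their other probe sets, 1 of RGS16 stood at 0.05, and those of GRK3 at -0.18 and -0.23, none called.

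Other lineages' markers were checked beside these changes. Of 13 measured microglia-type and resident macrophage genes, 3 rose and 1 fell: TREM2 by 1.56 and MERTK by 1.38, against CX3CR1, which fell by 1.46. A second CX3CR1 probe set stood at 0.07 and 1 of MERTK at 0.11, neither called. Of 7 measured megakaryocyte and platelet markers 1 rose, PPBP by 3.47 (SE 1.14, limma adjusted p = 0.0394), with ITGA2B at 0.03, GP9 at 0.01 and PF4 at 0.07. The list's summed level, in log2, ran from 7.91 to 8.13 in vehicle with doxycycline and from 8.05 to 8.97 in PMA with doxycycline. Of 7 T and NK cell markers 1 rose, CD3D by 0.39, and 0 were called on the arrays numbered 2 and 3; the summed level was 10.71 to 11.08 and 10.57 to 10.62 in the same groups. Of 4 B cell markers PAX5 fell by 1.16, with -0.24 on its other probe set (summed level 7.95 to 8.12 and 7.45 to 7.73). Of 2 erythroid markers and 9 markers of fibroblasts, epithelium and endothelium 0 were called, the smallest p being those of HBB at 0.28 and PDGFRB at -0.23, and by unadjusted p under 0.05 HBB alone passed. The part of these markers in the members' changes was not tested.

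The members lie close together in the genome in several places, so their 3 nearest protein-coding neighbours on each side were read as well, by gene order alone. Of 31 distinct neighbours that are not members 28 were measured, 4 rose and 8 fell, with a median of 0.02. GPR34 and GPR82 sit side by side within the span of CASK, a scaffold kinase gene, which rose by 1.16 (SE 0.17, limma adjusted p = 0.000144). On 4 of the 5 CASK probe sets the rise was called, at 1.16 to 1.61, and the other stood at 0.46. DDX3X, on the far side of NYX, rose by 0.32, while NYX, PPP1R2C, MAOA and MAOB stood between -0.03 and 0.28 and were not called. The rises of GPR34 and GPR82 thus exceeded those of every measured neighbour of this stretch.

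P2RX7 and P2RX4 are adjacent on chromosome 12, and both rose. The genes that follow them, CAMKK2, ANAPC5 and RNF34, fell by 0.64, 0.67 and 0.92 (limma adjusted p at most 0.0045), and OASL, before them, stood at 0.80 (limma adjusted p = 0.217). On chromosome 11 P2RY2 and P2RY6 are adjacent, and P2RY6 alone was called, with FCHSD2 falling by 1.23 and FAM168A rising by 0.51 nearby. P2RY13 and P2RY14 share a cluster on chromosome 3 with P2RY12 and GPR171 inside the span of MED12L, none of which was called, and of the genes beyond it IGSF10 fell by 1.57 and CLRN1 rose by 0.53. Around P2RX1 on chromosome 17, HASPIN, NCBP3 and ATP2A3 fell by 1.55, 0.51 and 0.57.

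**Figure D5:**
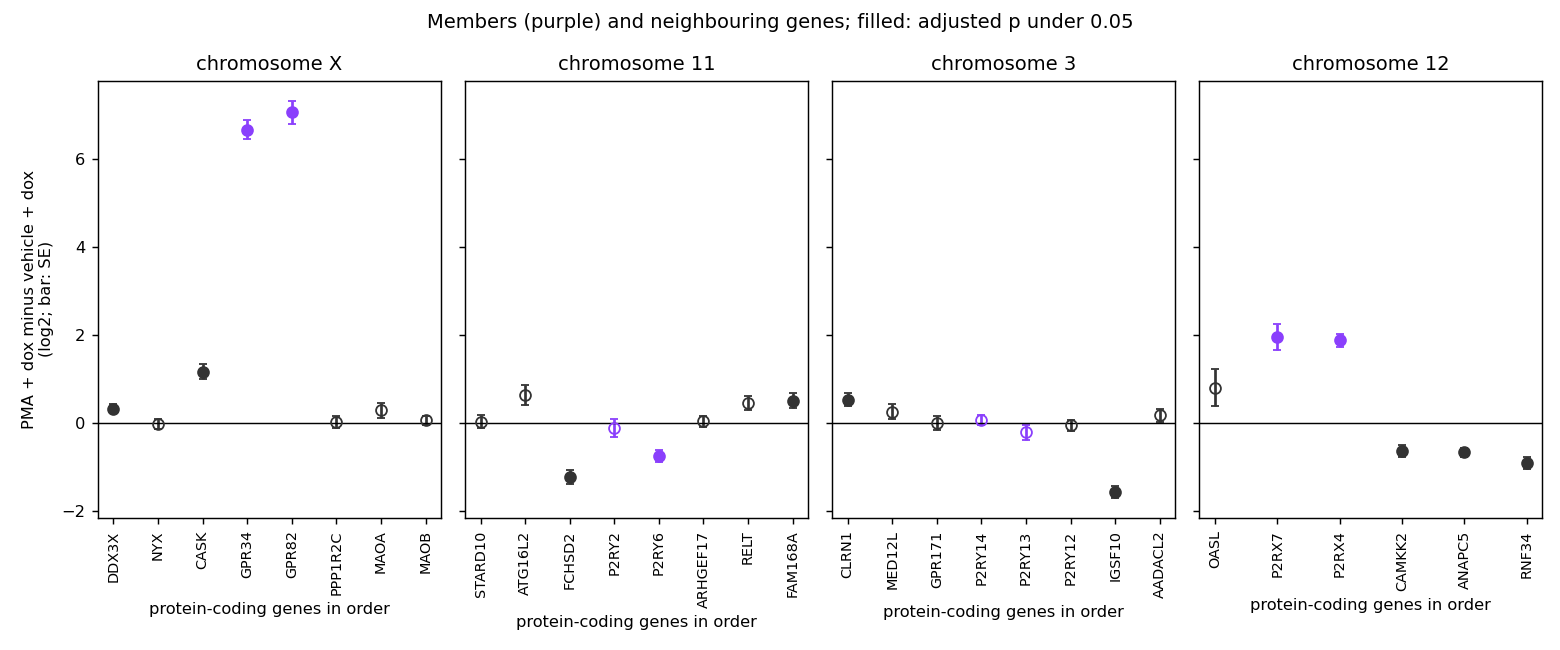
Difference in log2 signal between PMA with doxycycline and vehicle with doxycycline for the members (purple) and their measured protein-coding neighbours, in gene order along 4 stretches, spaced evenly rather than by distance; bars are standard errors and filled points have an adjusted p under 0.05. GPR34 and GPR82 reach 6.67 and 7.06 while the flanking genes stay at or below 1.16, and P2RX7 and P2RX4 stand at 1.96 and 1.88 beside 3 genes below 0.

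The genes whose profile was nearest to each called member were found by the root mean square difference over the 12 arrays, after the mean of the vehicle arrays was taken from each probe set. Nearest to GPR34 were IER3 (0.26), A2M (0.27) and FABP4 (0.27). Nearest to GPR82, by 244434_at, were EMP1 (0.40), TDO2 (0.44) and GPR34 (0.47). For P2RX4 the nearest were PSAP (0.11), ICAM1 (0.13) and SRD5A1 (0.14), for P2RX7, by 230741_at, TESK2 (0.26), MTSS1 (0.27) and MALAT1 (0.27), and for P2RY6 RUSC1, TOLLIP-DT and RNPS1 (0.10 to 0.11). These distances are descriptions over arrays that share the same groups. They include the PMA and vehicle arrays that singled out the genes, and they depend on the size of the change. The closeness of GPR34 and GPR82 is thus no separate support for a link between them.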

How the data were processed

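Signals of HG-U133 Plus 2.0 arrays were deposited on the log2 scale; per the submitters' processing notes they come from RMA, whose version is not given in the sources used here. No further scaling was applied. Of 54675 probe sets, 62 controls were left out, 41091 had 1 gene symbol (41037 brought up to date by Entrez number), 1801 several and 11721 none. Group means over all 12 arrays were fitted with limma 3.58.1 in R 4.3.3 (8 residual and 5.6 prior degrees of freedom), two-sided, with Benjamini-Hochberg adjustment over 54613 probe sets and calls at 0.05. Precision is limited by the 3 arrays of each group. The genes, lists and tests were chosen with earlier results of these data known. Named were the members, ZXDC, up to 2 rises and 2 falls of each list (else the smallest p), the nearest profiles and the neighbours; exceptions are stated. Intervals are at 95% and come from the fit without pairing. Arrays of the same number were taken as paired within agents, since their deviations from the group means correlated at 0.53, 0.22 and 0.31 in vehicle and 0.57, 0.22 and 0.31 in PMA. They were not so taken between the doxycycline groups (0.24, 0.09 and 0.12) or between vehicle and PMA (0.19, -0.01 and 0.21). Between vehicle and PMA with doxycycline the values were 0.16, 0.12 and 0.18, and between vehicle with doxycycline and PMA 0.26, 0.23 and 0.15. In both of these last cases 6 of 6 arrays correlated best with their own number. The 6 pairs leave out such links across agents, and the replicate block over all groups takes them in. RefSeq sequences came from 5 of 9 member genes. The fit was tested on simulated data.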

Additional observations from a re-analysis of the deposited data

How the results depend on the processing

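The count of 8 called member probe sets in PMA with doxycycline against vehicle with doxycycline was the same under cyclic loess, quantile normalization, the prior trend, the replicate block over all groups, the 6 arrays of that comparison alone and each left-out array (8 to 8), and without the dimmest 30% of probe sets, which removed P2RY13 and P2RY14. It was 5, of 9 genes, by either gene-level reading (probe set of highest mean or mean of probe sets), since fewer features were tested, and 10 on the arrays numbered 2 and 3, where P2RX1 (0.82) and P2RY2 (-0.49) were added. The background of 13401 calls was 6426 and 6249 by those gene-level readings and 11055 to 14063 with an array left out. For doxycycline in PMA the background of 0 was 1 by gene, 4 with the replicate block over all groups, 79 with the replicate block of 6 pairs, 5 on the arrays numbered 2 and 3 and 0 to 1 with an array left out. Averaged over agents it was 1 with the block over all groups and 1 on the arrays numbered 2 and 3, and for the interaction 1 with the 6 pairs and 0 to 1 with an array left out. The replicate block changed no member's call. Direction turned in 4 values with 1 array left out, none called in the full data. With an array left out, GPR82 with doxycycline in PMA ran from -0.74 to 0.0252 on 1553316_at and from -0.59 to 0.0156 on 244434_at. With PMA in the presence of doxycycline, P2RY13 (220005_at) ran from -0.35 to 0.0088 and P2RY2 (206277_at) from -0.36 to 0.033. Of the lists, lysophosphatidylserine genes had 1 call by the mean of probe sets, T and NK markers 0 and the NLRP3 path 8 on the arrays numbered 2 and 3. ZXDC missed the exact test on 230209_at (-0.33) and 230106_at (-0.30). The cause of these shifts was not tested.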

Other observations

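Among other chemoattractant receptors of phagocytes 15 were measured, and 7 rose and 3 fell with PMA in the presence of doxycycline (median 0.33). C5AR1, the receptor for the complement fragment C5a, rose by 5.02 (SE 0.22, limma adjusted p = 2.76e-09), and CCRL2, which binds chemerin, by 3.27 (SE 0.20, limma adjusted p = 4.9e-08). PTGER2, a prostaglandin E receptor, fell by 1.75 and S1PR3, a receptor for sphingosine 1-phosphate, by 1.73 on its brighter probe set, with 0.17 on the other.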
